A study of Mus musculus with 80 samples.

Results

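Lin28b, Igf2bp1, Igf2bp2, Igf2bp3, Hmga2 and Arid3a, 6 genes of the mouse fetal growth programme, were followed through haematopoietic development in bulk RNA-seq of B6 mouse haematopoietic stem cells (HSC) and haematopoietic progenitor cells (HPC). They were taken by symbol through their Ensembl gene identifiers, and all 6 of 6 were found among the 41388 genes of the first deposited gene table and the 40481 of the second. Their RNA lay high before birth and was lowest in adults in both cell types, but the 6 genes fell at different ages. Igf2bp1 was nearly lost by day 7 after birth in HPC. Lin28b, Igf2bp2, Igf2bp3 and Hmga2 made their largest step down, on the log2 scale, between P14 and the adult, the longest interval. Igf2bp2 was kept at a higher level in HSC than in HPC at every age, and Igf2bp3 at a lower level in HSC than in HPC from P0 to P14.

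The age series held 26 HSC libraries and 20 HPC libraries. HSC gave 3 libraries at E14, 4 at E16, 3 at E18, 4 each at P0, P7 and P14, and 4 from adults of 8 weeks. HPC gave 3 at E16, 4 each at P0 and P7, 5 at P14 and 4 from adults. E counts days of gestation (E14.5, E16.5 and E18.5 in the age label) and P days after birth. The genotype series compared cells labelled Ifnar -/- with wild type at P0, in HSC (4 and 5 libraries) and in HPC (4 and 4). At P14 it held HPC of mice labelled Ifnar -/- with Flt3 ITD/+ (5 libraries), Ifnar -/- with Flt3 +/+ (4), Ifnar +/- with Flt3 ITD/+ (4) and Ifnar +/- with Flt3 +/+ (4), so that the control group of that set carries 1 Ifnar knockout allele and no group is wild type at both loci. Ifnar encodes the type I interferon receptor, and the internal tandem duplication (ITD) of the receptor tyrosine kinase Flt3 is a leukaemia mutation. Sort markers, organs and whether replicate libraries came from separate animals, pools or splits were not stated in the labels, so p-values measure the spread between libraries only.

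LIN28B is an RNA-binding protein that blocks the maturation of let-7 microRNAs. Mature let-7 represses messages that carry its seed match, among them those of HMGA2, a chromatin protein of fetal stem cells, of the IGF2BP family, which binds and stabilises growth-related messages such as Igf2 and Myc, and of Lin28b itself. ARID3A is an AT-rich DNA-binding transcription factor of B-lineage and fetal blood cells, and a further let-7 target. In mice this axis is known for setting the fetal as against the adult behaviour of blood stem cells.

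The let-7 family shares 1 seed. In RefSeq (GRCm38.p6), 9 mature mouse microRNAs from 11 loci carry GAGGUAG at bases 2 to 8, shown here in capitals for 3 of them because the matches printed further on are matches to it. Mature let-7 was not measured in these libraries.
mmu-let-7a-5p: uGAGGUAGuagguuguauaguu
mmu-let-7g-5p: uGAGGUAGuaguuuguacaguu
mmu-miR-98-5p: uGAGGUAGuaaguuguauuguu

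The DNA-sense match to that seed, CTACCTC, was looked for on the transcribed strand of the longest annotated 3′ UTR of each gene (GENCODE M21, GRCm38). Lin28b held 4 matches, Igf2bp1 4, Hmga2 4, Arid3a 2, Igf2bp2 1 and Igf2bp3 1, and each of the 6 UTRs had at least 1 match followed by A. Of 21022 genes with a 3′ UTR, 9.019% had the 7-base match and 3.059% the 8-base match. Long UTRs hold more matches by length alone. Among genes whose UTR was of similar length, at least as many matches were present in 0.239% for Lin28b, 0.265% for Igf2bp1, 0.138% for Hmga2, 2.277% for Arid3a, 11.53% for Igf2bp2 and 12.924% for Igf2bp3. One 8-base match of each gene is printed with its flank, the 7-base match in capitals. A match describes the letters and not a site in use.
Lin28b, chr10:45381021-45381044, minus strand: acccgggcgggaagtCTACCTCat
Igf2bp1, chr11:95961777-95961800, minus strand: gctgtgcgaagtaaaCTACCTCaa
Igf2bp2, chr16:22059472-22059495, minus strand: acacacaaataaaagCTACCTCag
Igf2bp3, chr6:49086786-49086809, minus strand: tgcatttttactcaaCTACCTCag
Hmga2, chr10:120364223-120364246, minus strand: gccgacattcaatttCTACCTCag
Arid3a, chr10:79953895-79953918, plus strand: aaggcaagtttctttCTACCTCag

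Library depth ran over 6.95 to 24.03 M assigned reads in HSC and 7.91 to 25.38 M in HPC of the age series, and over 37.04 to 46.3 M (P0 HSC), 11.68 to 14.72 M (P0 HPC) and 58.4 to 92.1 M (P14 HPC) in the genotype series. Summed HPC markers ran from 1040 to 2250 CPM (counts per M reads) in HSC libraries and from 3800 to 18300 CPM in HPC libraries of the age series, without overlap, while summed HSC markers overlapped (2150 to 2960 CPM in HSC, 2030 to 3550 CPM in HPC). Library codes in the labels change with HSC age, so that E14, E16 and E18 share 1 code prefix, P7 and P14 another, and P0 and adult one more. The HSC steps E18 to P0, P0 to P7 and P14 to adult therefore cross prefixes, and code and age cannot be told apart there. In HPC the prefix changes at every age, with the same limit. Levels below are in RPKM (reads per kilobase of exon and M reads), which allows genes to be set side by side. In bulk RNA, fewer cells that carry a message and less of it per cell cannot be told apart.

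In HSC all 6 genes were lower in adults than at E16, where 12% of the 13375 genes tested were called lower at an adjusted p under 0.05. These and all following HSC age tests are limma tests on log2(RPKM + 0.5) with Benjamini-Hochberg adjustment over every gene tested. The median difference of the 6 was −3.04 on that log2 scale, against 0.03 for all genes. The added 0.5 understates the change of a gene near 0, so the levels are given first.

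Lin28b, the let-7 inhibitor, had 0.0530, 0.0402, 0.0377 and 0.0839 RPKM in the 4 adult HSC libraries, from 4, 5, 4 and 9 reads, against 2.15, 2.56, 3.58 and 3.01 RPKM at E16. The groups did not overlap, and the adult mean was 1.9% of the E16 mean (log2 difference −2.57 ± 0.30 SE, limma adjusted p = 1.88e-07). Among the age steps, the one between P14 and adult was called (−1.46 ± 0.30, limma adjusted p = 0.00232). The earlier steps were not called, with means of 5.2, 2.83, 2.39, 1.97, 1.42 and 1.09 RPKM from E14 to P14 in order of age.

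Igf2bp1, the family member with the largest change, had 0.0443, 0.0358, 0.0210 and 0.0208 RPKM in adult HSC, from 6, 8, 4 and 4 reads, against 14.8, 18.6, 23.9 and 21.4 RPKM at E16. Every adult library lay far under every E16 library (log2 difference −5.23 ± 0.22, limma adjusted p = 4.95e-16). Igf2bp1 fell at 3 steps in a row. It was lower at E18 than at E16 (−0.91 ± 0.24, limma adjusted p = 0.024), lower at P0 than at E18 (−1.07 ± 0.24, adjusted p = 0.00796) and lower at P7 than at P0 (−2.28 ± 0.22, adjusted p = 1.35e-07). Its mean at P7 was 0.600 RPKM, 3.05% of the E16 mean. The E18 call was lost in edgeR on the reads recovered from the RPKM (adjusted p = 0.0757), with 0.1 added in place of 0.5 (limma adjusted p = 0.121) and without the first or the second E18 or the third or the fourth E16 library (0.0701 to 0.0961). The P0 call was lost with 0.1 added (limma adjusted p = 0.0609) and without the third E18 library (0.0538).

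Igf2bp2 kept the largest part of its fetal level among the 3 family members in HSC. It had 4.18, 4.0, 3.61 and 2.22 RPKM in adults, against 19.7, 22.3, 21.4 and 20.6 RPKM at E16, again without overlap (−2.45 ± 0.16, limma adjusted p = 2.74e-12). Its means were 16.6, 21, 23.8, 17.5, 15.7 and 11.1 RPKM from E14 to P14, and no step before P14 was called. The adult level was lower than that at P14 (−1.53 ± 0.16, limma adjusted p = 1.74e-07).

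Igf2bp3 had 0.132, 0.0599, 0.106 and 0.603 RPKM in adult HSC, against 11.9, 16.49, 11.7 and 12.3 RPKM at E16 (−4.26 ± 0.22, limma adjusted p = 4.39e-14). The fourth adult library stood above the other 3, yet still far below all E16 libraries. At P0 the mean was 104% of E16, with the third P0 library at 20.8 RPKM and the other 3 at 10.6 to 12.1 RPKM. The 4 P7 libraries had 5.46 to 10.4 RPKM, below all P0 libraries, but that step was not called (−0.68 ± 0.22, limma adjusted p = 0.071). The called steps were P14 against P7 (−1.11 ± 0.22, limma adjusted p = 0.00718) and in adults against P14 (−2.47 ± 0.22, adjusted p = 1.79e-08). The P14 call was lost in edgeR on the recovered reads (adjusted p = 0.0654). Of the annotated exon bases of Igf2bp3, 18.7% (1529 of 8159) overlap Malsu1, a gene on the opposite strand, and the sources used here do not say whether counting used strand. That overlap is the one in GENCODE M21, whereas the deposited values fit an exon length of 4344 bases, so the overlap in the annotation that was counted is not known. Malsu1 differed by −0.82 between adult and E16 HSC (limma adjusted p = 0.18). Its part in the Igf2bp3 values was not tested.

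Hmga2 had the highest level of the 6 genes up to P0. It had 3.80, 2.90, 2.78 and 2.42 RPKM in adult HSC, against 39.6, 45.1, 36.7 and 36.0 RPKM at E16 (−3.52 ± 0.12, limma adjusted p = 1.57e-17). The fall was spread over the series. It was called at E18 against E16 (−0.61 ± 0.13, limma adjusted p = 0.00594), P7 against P0 (−1.11 ± 0.12, adjusted p = 1.43e-06), P14 against P7 (−0.58 ± 0.12, adjusted p = 0.011) and adult against P14 (−1.23 ± 0.12, adjusted p = 1.3e-07), and levels at P0 and E18 were close (26 and 26.1 RPKM, log2 difference 0.01 ± 0.13). With the P14 and P7 libraries fitted alone, the P14 call was lost (limma adjusted p = 0.0697).

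Arid3a changed least. Its adult HSC libraries had 2.19, 2.22, 2.36 and 1.249 RPKM, against 7.97, 8.14, 5.31 and 5.65 RPKM at E16 (−1.53 ± 0.24, limma adjusted p = 2.61e-05). The only called step was P7 against P0 (−1.38 ± 0.24, limma adjusted p = 0.000908), where the 4 P7 libraries (1.96 to 3.62 RPKM) lay below the 4 P0 libraries (4.39 to 12.1 RPKM). The adult to P14 difference missed the threshold (−0.81 ± 0.24, limma adjusted p = 0.0503).

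Counted by step in HSC, 0 of the 6 were called between E16 and E14 in limma (2 at an unadjusted p under 0.05, 0 in edgeR on the reads recovered from the RPKM, and 0.0523% of all genes called in either direction). At E18 against E16, 2 were lower (background 2.99% lower). At P0 against E18, 1 was lower (1.82%). At P7 against P0, 3 were lower (2.83%), and at P14 against P7, 2 were (1.08%). In adults against P14, 4 were lower in limma (2.99%). That last count was 6 in edgeR on the recovered reads, which also called Igf2bp1 and Arid3a. Adult and P0 share a library code, and all 6 were lower in adults than at P0 too (background 10.5%).

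**Figure D1:**
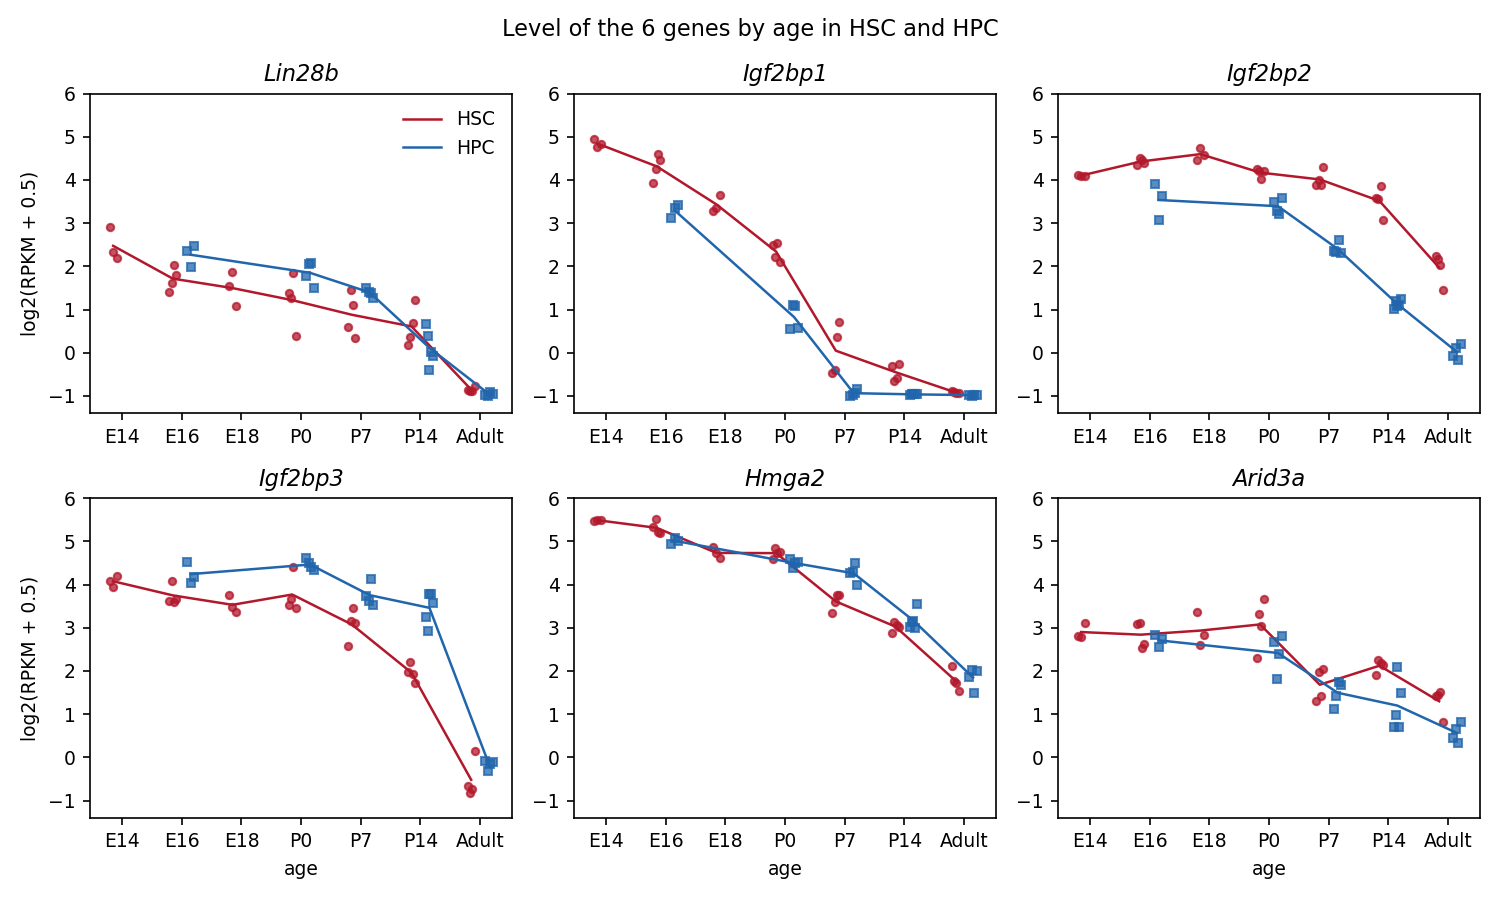
Level of each of the 6 genes as log2(RPKM + 0.5) by age, 1 panel a gene, with 1 point a library and a line through the group means for HSC (circles) and HPC (squares). Igf2bp1 drops out of HPC by P7 while Igf2bp2 is still at 15.7 RPKM in HSC at that age.

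Other features differed between the same libraries, and their part in the results was not tested. Y-linked genes were above 1 CPM in 0 of 4 adult HSC libraries, 4 of 4 at E16 and 4 of 4 at P0, so sex and age cannot be told apart in the adult HSC comparison. In HPC they were so in 4 of 4 adult and 3 of 3 E16 libraries. Summed macrophage markers ran from 55.4 to 113 CPM in adult and from 2.09 to 7.67 CPM in E16 HSC, T and NK cell markers from 72.4 to 90.8 and from 18.2 to 42.2 CPM (Cd3e was at 0), and erythroid markers from 17.2 to 32.2 and from 38.3 to 123 CPM. Endothelial markers ran from 65.6 to 108 CPM in adult and from 142 to 154 CPM in E16 HSC. Hepatocyte markers ran from 16.6 to 27.7 and from 7.24 to 9.77 CPM, and B cell markers from 0 to 1.16 and from 1.22 to 4.77 CPM. In HPC, T and NK cell markers ran from 432 to 537 CPM in adults and from 79.8 to 93.8 CPM at E16, macrophage markers from 10.7 to 115 and from 2.1 to 8.41 CPM, and endothelial markers from 195 to 234 and from 93.8 to 128 CPM. Hepatocyte markers ran from 16.9 to 20.3 and from 8.79 to 14.4 CPM there, stroma markers from 0.408 to 0.815 and from 0.0935 to 0.21 CPM, and HSC markers from 2950 to 3270 and from 2030 to 2500 CPM. Between the HSC ages P7 and P0, stroma markers ran from 7.91 to 64.6 and from 0 to 1.82 CPM, and B cell markers from 0 to 0.576 and from 1.65 to 4.41 CPM.

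In HPC all 6 genes were again lower in adults than at E16, and 12% of the 14754 genes tested were called lower. HPC ages were tested on the deposited counts with edgeR's quasi-likelihood test and Benjamini-Hochberg adjustment. The median difference of the 6 was −5.15, against 0.05 for all genes.

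Igf2bp1 fell earliest in HPC. It had 0.00561, 0, 0.0117 and 0.0105 RPKM in adults, 5 reads in all 4 libraries together, against 8.16, 9.76 and 10.1 RPKM at E16 (edgeR log2 fold change −10.36 ± 0.47 SE, adjusted p = 5.34e-13). It was already lower at P0, with 0.966, 1.65, 1.63 and 0.979 RPKM (−2.84 ± 0.29 against E16, edgeR adjusted p = 8.84e-06). At P7 it stood at 0 to 0.0561 RPKM (−5.78 ± 0.40 against P0, edgeR adjusted p = 4e-09). No library overlapped its neighbour age in these 2 steps, and at P7 the mean was 0.25% of E16.

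Lin28b had 0.0101, 0, 0.0314 and 0.0189 RPKM in adult HPC, from 6 reads in all, against 4.59, 3.45 and 5.07 RPKM at E16 (−8.17 ± 0.52, edgeR adjusted p = 1.26e-10). Its mean was already at 72.1% of E16 at P0 and 48.9% at P7, but those steps were not called in edgeR. The called steps came later. P14 lay below P7 (−1.62 ± 0.30, edgeR adjusted p = 0.00259), with 0.261 to 1.08 RPKM in 5 libraries against 1.92 to 2.34 RPKM in 4, and the adult lay below P14 (−5.49 ± 0.52, adjusted p = 2.44e-07). The size of the adult fold changes of Lin28b and Igf2bp1 rests on those few reads and on the prior count of the fit.

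Igf2bp2 fell far more in HPC than in HSC. Adult HPC had 0.442, 0.584, 0.397 and 0.643 RPKM, against 14.4, 7.92 and 11.9 RPKM at E16 (−4.60 ± 0.20, edgeR adjusted p = 3.56e-13). It was lower at P7 than at P0 (−1.10 ± 0.17, edgeR adjusted p = 0.000769), at P14 than at P7 (−1.38 ± 0.16, adjusted p = 2.86e-05) and in adults than at P14 (−1.95 ± 0.18, adjusted p = 1.38e-07).

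Igf2bp3 had 0.438, 0.306, 0.404 and 0.422 RPKM in adult HPC, against 22.4, 15.8 and 17.6 RPKM at E16 (−5.70 ± 0.21, edgeR adjusted p = 1.36e-14). At P14 its mean was still 58.0% of that at E16, and the adult was lower than P14 by a log2 fold change of −4.99 ± 0.20 (edgeR adjusted p = 7.01e-14). The P7 to P0 difference was called too (−0.75 ± 0.16, edgeR adjusted p = 0.0137), but was lost without the first, the second or the fourth P7 library (adjusted p = 0.0524, 0.0714 and 0.0691). Malsu1 differed by 0.11 between adult and E16 HPC.

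Hmga2 had 3.15, 3.57, 2.31 and 3.52 RPKM in adult HPC, against 30.2, 33.5 and 31.8 RPKM at E16 (−3.49 ± 0.16, edgeR adjusted p = 5.54e-13). The difference between its falls in HSC and HPC was −0.27 ± 0.18 (limma adjusted p = 0.469). It was called lower at P14 against P7 (−1.01 ± 0.13, edgeR adjusted p = 0.000141) and in adults against P14 (−1.68 ± 0.14, adjusted p = 5.1e-08). Arid3a had 0.860, 1.08, 0.753 and 1.26 RPKM in adults, against 6.66, 5.37 and 6.15 RPKM at E16 (−2.75 ± 0.33, edgeR adjusted p = 2.46e-06), and of its steps the last was called (−1.21 ± 0.30, adjusted p = 0.00532), although adult and P14 libraries overlapped.

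By step, 1 of 6 was called lower at P0 against E16 (background 0.685% lower), 3 at P7 against P0 (0.908%), 3 at P14 against P7 (5.06%) and 5 in adults against P14 (14.1%), the exception being Igf2bp1, which was already near 0. All 6 were lower in adults than at P0 (12.2%).

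**Figure D2:**
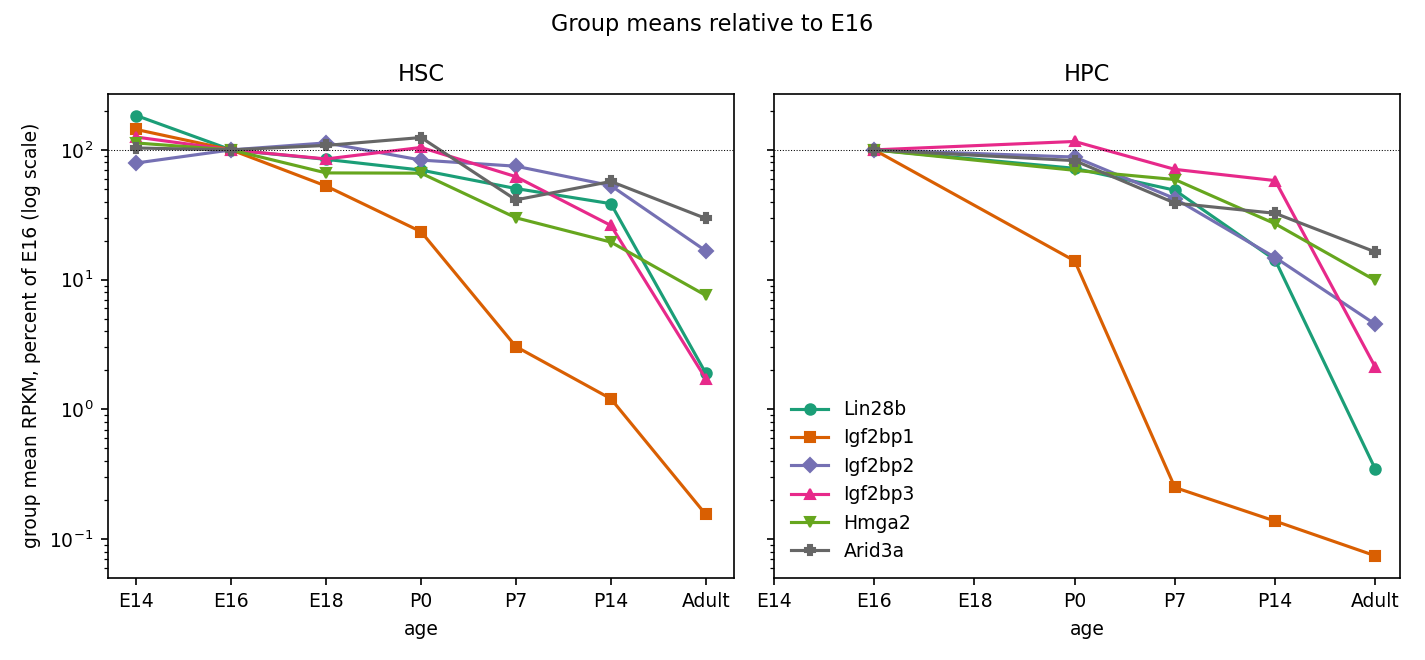
Group mean of each gene as a percentage of its own E16 mean (log axis) by age in HSC and HPC. At P7 Igf2bp1 is at 3.05% in HSC and 0.25% in HPC, while Igf2bp3 is at 62.1% and 70.7%.

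HSC and HPC of the same age were set against each other in 1 limma model of all age-series libraries. Their library code prefixes differ at every age, so code and cell type cannot be told apart in these comparisons. The HSC and HPC columns of the deposited table are in different units and were brought to RPKM with the same exon lengths. Igf2bp2 was higher in HSC at all 5 shared ages. The log2 difference was 0.81 at E16, 0.69 at P0, 1.56 at P7, 2.22 at P14 and 1.95 in adults, with limma adjusted p-values of 0.000304, 0.000381, 6.62e-11, 2.53e-16 and 1.29e-13. At P14 the 4 HSC libraries had 11.4, 11.2, 14.1 and 7.89 RPKM and the 5 HPC libraries 1.53, 1.78, 1.61, 1.67 and 1.87 RPKM. Igf2bp2 did not overlap between the cell types at any of these ages.

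Igf2bp3 ran the other way. It was lower in HSC than in HPC by log2 differences of −0.57 (E16), −0.78 (P0), −0.73 (P7) and −1.69 (P14) (limma adjusted p = 0.0488, 0.00155, 0.00292 and 1.02e-09), and in adults the difference was −0.34 (adjusted p = 0.207). At P14 HSC had 3.45, 4.14, 3.29 and 2.81 RPKM, against 9.03, 7.06, 13.3, 13.1 and 11.4 RPKM in HPC. The E16 call was lost in edgeR on the recovered reads (adjusted p = 0.12), without TMM scaling (limma adjusted p = 0.106), with 0.1 added (0.134), without the filter on low values (0.0808) and without any 1 of 6 of the 7 libraries (0.0586 to 0.236). Malsu1, which overlaps Igf2bp3, was higher in HSC than in HPC at all 5 ages, and its part in the Igf2bp3 values was not tested.

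Igf2bp1 was higher in HSC by 0.94, 1.44, 0.97 and 0.50 at the 4 ages from E16 to P14, with limma adjusted p-values of 0.000604, 5.59e-08, 6.89e-05 and 0.026. At P7 HSC had 0.223, 0.253, 0.780 and 1.14 RPKM while HPC had 0 to 0.0561 RPKM. In adults the limma difference was 0.06 (adjusted p = 0.84), at levels of 0.0208 to 0.0443 RPKM in HSC and 0 to 0.0117 RPKM in HPC. Lin28b was lower in HSC at P0 (−0.70, limma adjusted p = 0.0277), a call lost without the fourth HSC library (limma adjusted p = 0.205), without the second or the third HPC library (0.0763 and 0.0723), with 0.1 added (0.051), with the P0 libraries fitted alone (0.0715) and in edgeR on the recovered reads (adjusted p = 0.0982). Hmga2 was lower in HSC at P7 (−0.70, limma adjusted p = 1.57e-05) and P14 (−0.33, adjusted p = 0.0246), and Arid3a was higher in HSC at P14 (0.77, adjusted p = 0.0109) and in adults (0.74, adjusted p = 0.0245). Of these, the P14 call of Hmga2 was lost without TMM scaling (limma adjusted p = 0.409), with the P14 libraries fitted alone (0.132) and without the first or the fourth HSC or the fifth HPC library (0.0504 to 0.0974), that of Igf2bp1 with 1 added in place of 0.5 (0.123) and without the first or the fourth HSC library (0.0758 and 0.0853), and the adult call of Arid3a without the second or the third HSC or the first or the third HPC library (0.0545 to 0.0679).

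The members called higher and lower in HSC were 2 and 1 at E16, where 12.7% and 10.4% of all genes were called. They were 2 and 2 at P0 (20.1% and 18.4%), 2 and 2 at P7 (20% and 21.3%) and 3 and 2 at P14 (18.1% and 18.9%). In adults 2 were called higher (12.9%). Cell type differences were common among all genes. Y-linked genes were above 1 CPM in 0 of 4 adult HSC and 4 of 4 adult HPC libraries. Sex and cell type therefore cannot be told apart in adults, nor in the cell type difference of the change from E16 to adult. The change from E16 to adult itself differed between the cell types for Igf2bp2 alone, which fell less in HSC (difference of differences 1.14 ± 0.23, limma adjusted p = 0.00106, background 1.91% higher). For Igf2bp1 it was −0.88 ± 0.28 (adjusted p = 0.062), a value that the added 0.5 compresses and that turned to 1.02 in edgeR on the recovered reads.

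**Figure D3:**
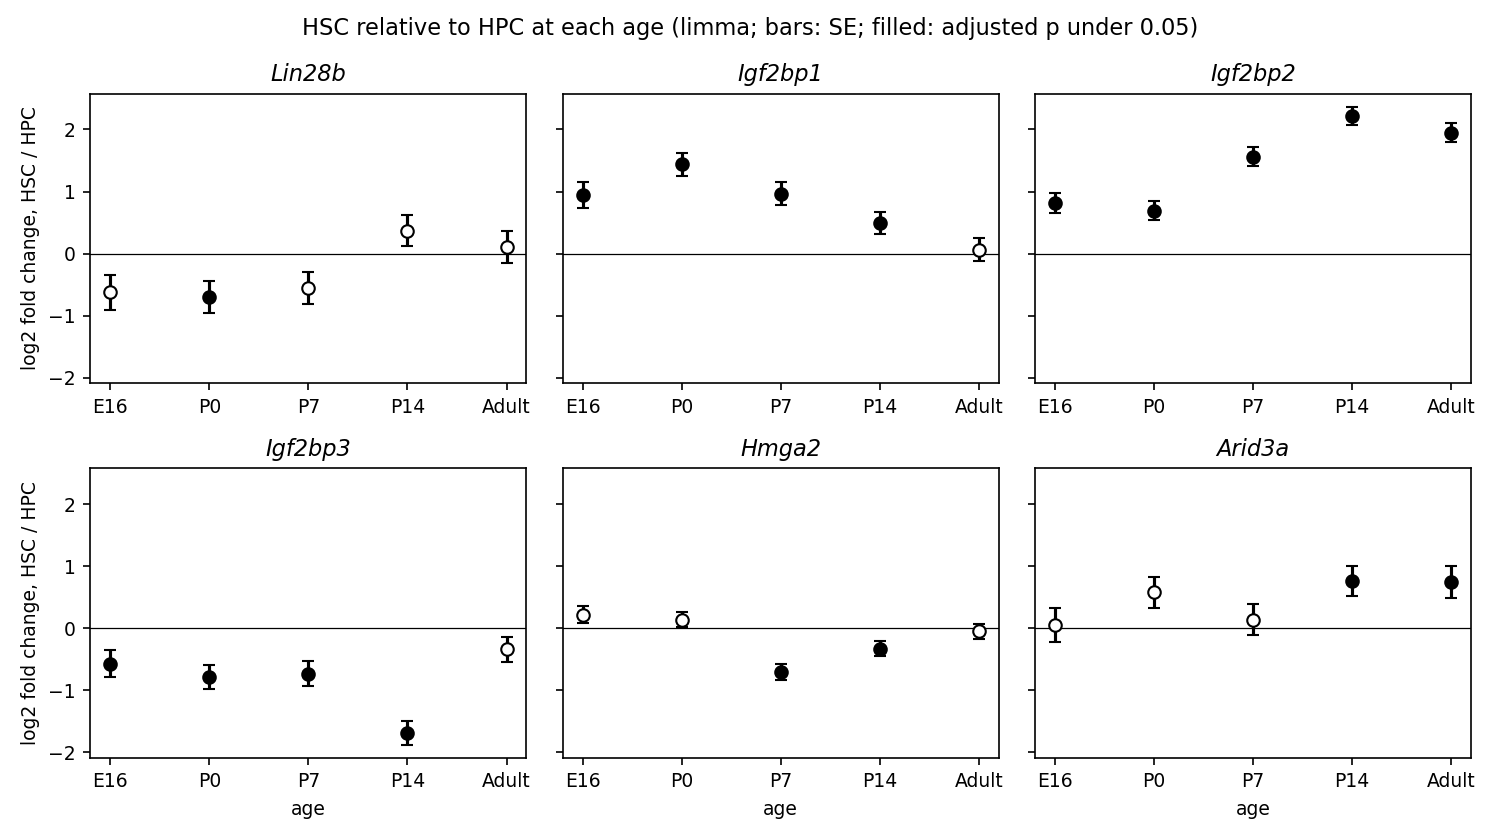
Difference between HSC and HPC at each shared age for the 6 genes, in log2(RPKM + 0.5), 1 panel a gene. Bars are standard errors and filled points passed an adjusted p of 0.05 in limma. Igf2bp2 is above 0 at all 5 ages and Igf2bp3 below 0 at all 5.

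Because the 3 IGF2BP proteins are paralogues, the composition of the family was also read, as the percentage of the summed RPKM of Igf2bp1, Igf2bp2 and Igf2bp3 that each gene gave. In HSC the sum went down with age, with means of 61.3, 53.8, 45.3, 35.8, 24.5, 14.8 and 3.76 RPKM from E14 to adult. The share of Igf2bp1 was 46.1% at E14, 36.4% at E16, 22.9% at E18, 12.9% at P0 and 2.31% at P7, and the share of Igf2bp2 was 27.2%, 39.2%, 52.5%, 49.7%, 64.6%, 74.9% and 92.1% from E14 to adult. By group mean Igf2bp1 had the largest share at E14 and Igf2bp2 at every later age, but at E16 Igf2bp1 led in 2 of the 4 libraries, and at P0 Igf2bp3 led in the third (49.8%, against 37.5% for Igf2bp2).

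In HPC the sum was 39.4, 33, 18, 12.5 and 0.916 RPKM from E16 to adult. From E16 to P14, Igf2bp3 gave 47.1%, 65.5%, 72.9% and 85.8%, while Igf2bp2 gave 28.6%, 30.5%, 26.9% and 14.1%. In adult HPC, at the low remaining level, Igf2bp2 gave 56% and Igf2bp3 43.2%. In 15 exact two-sided permutation tests of HSC against HPC shares, 14 reached the smallest p their library numbers allow (0.0286 or 0.00794, adjusted 0.0306 for each), and the remaining one, Igf2bp1 in adults, had p = 0.943 in the exact permutation test. The shares at an age are parts of the same sum, so the tests at that age depend on each other. They also rest on the same libraries as the tests of the single genes, and so are no separate evidence.

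**Figure D4:**
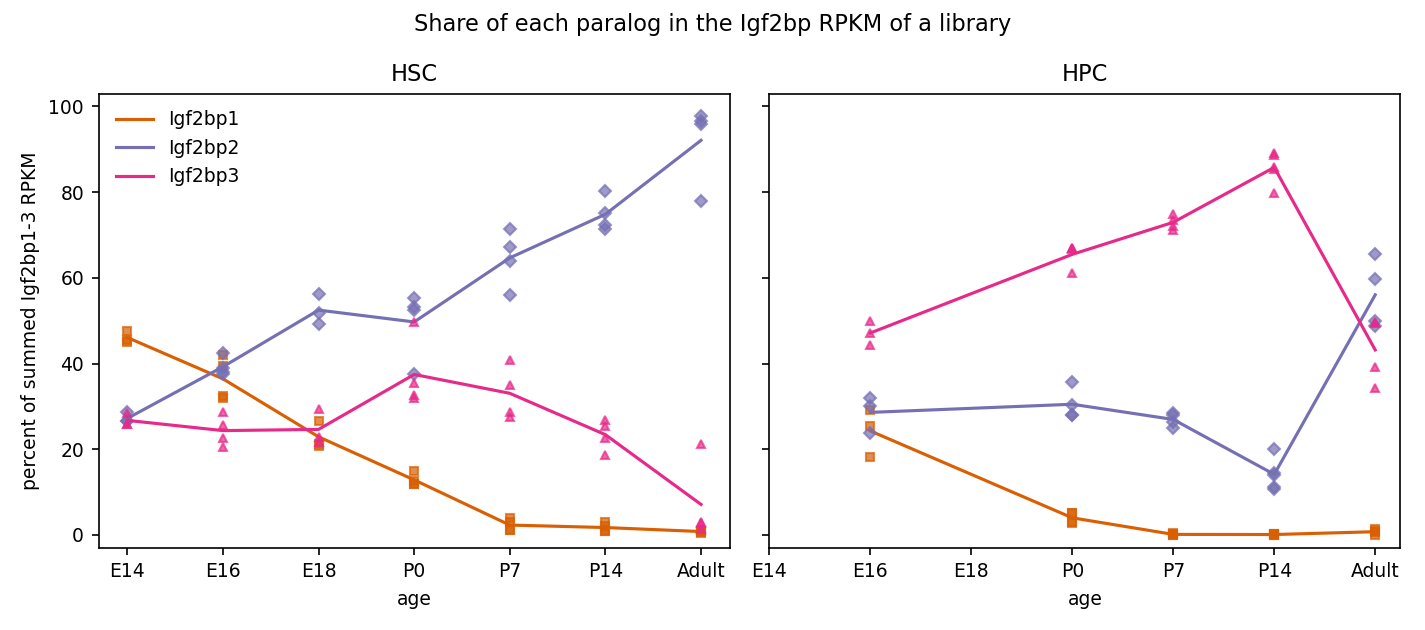
Share of each Igf2bp gene in the summed Igf2bp RPKM, in percent of the total, by age in HSC and HPC, with 1 point a library and lines through the means. Igf2bp2 reaches 92.1% in adult HSC and Igf2bp3 85.8% in P14 HPC.

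Other genes of the pathway were read from lists of paralogues, let-7 processing factors, let-7 targets, let-7 host transcripts, RNAs bound by IGF2BP proteins and fetal stem cell regulators. Between adult and E16 HSC, 3 of 5 tested paralogues were lower (median −0.53, all genes 0.03), led by Hmga1, the second HMGA chromatin protein (−2.15 ± 0.13, limma adjusted p = 7.16e-13). In HPC 3 of 5 were also lower (median −0.63, all genes 0.05), with Hmga1 at −2.23 ± 0.26 (edgeR adjusted p = 1.55e-06). Lin28a, the paralogue of Lin28b, reached at most 0.471 RPKM in a library. Over all genes tested, 12.5% were called higher in adult HSC and 14.9% in adult HPC, beside the 12% called lower in each. Of the let-7 processing factors, 1 of 10 was called in HSC, Tarbp2, a partner of Dicer (−1.03 ± 0.17, limma adjusted p = 4.42e-05), and 2 of 10 in HPC, Tut7, a terminal uridylyltransferase (0.86 ± 0.23, edgeR adjusted p = 0.00814), and Khsrp (−0.73 ± 0.17, adjusted p = 0.00249). None of the 3 tested let-7 host transcripts was called in either cell type.

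Let-7 target messages were called in both directions between adult and E16. In HSC 7 of 20 were lower and 3 higher (median −0.32, all genes 0.03), where 12% of all genes were lower and 12.5% higher. Those lower included Mycn (−0.76 ± 0.20, limma adjusted p = 0.00491), E2f2, Nras and Plagl2, and those higher were Myc (1.51 ± 0.15, adjusted p = 6.81e-09), Cdk6 (0.95 ± 0.11, adjusted p = 3.06e-07) and Ccnd2. In HPC 7 of 21 were lower and 2 higher (median −0.46, all genes 0.05), with Mycn at −1.58 ± 0.23 (edgeR adjusted p = 3.25e-05) and Irs2 higher at 2.49 ± 0.60 (adjusted p = 0.00402). Of the RNAs that IGF2BP proteins bind, 2 of 9 were lower and 2 higher in HSC, and 4 of 9 lower and 1 higher in HPC, against the same shares of all genes (12% lower in each, 12.5% and 14.9% higher).

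The imprinted pair H19 and Igf2 changed most among those. H19 had a mean of 1.23 RPKM in adult HSC, against 92.2 RPKM at E16 (−5.78 ± 0.21, limma adjusted p = 4.29e-17), and 0.0433 RPKM in adult HPC, against 13.4 RPKM at E16 (−8.24 ± 0.55, edgeR adjusted p = 2.28e-10). Igf2, the growth factor whose message names the family, differed by −3.85 ± 0.20 in HSC (limma adjusted p = 3.39e-14) and −5.69 ± 0.95 in HPC (edgeR adjusted p = 0.00013). Of the fetal regulators, 2 of 8 tested were lower and 0 higher in adult HSC, and 2 of 9 lower and 1 higher in adult HPC (background 12% lower in each). Mllt3 was lower in both cell types (−0.67 ± 0.11 in HSC, limma adjusted p = 2.54e-05, and −0.83 ± 0.19 in HPC, edgeR adjusted p = 0.002).

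Across the 26 HSC libraries the profile most like Igf2bp1 was that of Igf2 (Pearson r = 0.989 on the log2 scale, out of 11482 genes), then Dnmt3a (0.961) and H19 (0.948). Hmga2 was most like Col18a1 and Dnmt3a (both 0.965), Lin28b like Nrep (0.919), Igf2bp3 like Dok2 (0.968), Igf2bp2 like the globin gene Hbb-bt (0.96), which shares reads with a near-identical copy, and Arid3a like Plagl2 (0.874). In the 20 HPC libraries (12741 genes) Lin28b, Igf2bp2 and Hmga2 were each other's close neighbours, with r = 0.977 for Hmga2 and Igf2bp2 and 0.96 for Hmga2 and Lin28b, Igf2bp1 was most like H19 (0.943), Igf2bp3 like Trbc2 (0.97) and Arid3a like Gpc3 (0.931). All these libraries share the age axis, so the correlations describe that shared course.

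At P0 the genotype labels were first read against their own genes. Ifnar1 counts were not lower in the libraries labelled Ifnar -/- (log2 fold change 0.08 in HSC and 0.41 in HPC, edgeR adjusted p = 0.872 and 0.0735), and counts per gene cannot show which exons are missing. Of 16 interferon-stimulated genes, a list drawn up after the values were seen and so no independent check of the labels, 16 were called lower in edgeR in Ifnar -/- HSC and 15 in Ifnar -/- HPC (background 0.937% and 5.58% lower).

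Between P0 HSC labelled Ifnar -/- and wild type, 0 of the 6 genes were called in edgeR and 0 in DESeq2, with 1 at an unadjusted p under 0.05 (background 1.15% in either direction). That one was Hmga2, with 27.1, 24.6, 19.9 and 20.9 RPKM in Ifnar -/- HSC, against 19.1, 18.2, 19.2, 13.8 and 16.2 RPKM in wild type (0.44 ± 0.13, edgeR adjusted p = 0.23). The groups did not overlap, but the difference failed the correction. The other 5 overlapped.

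In P0 HPC, Igf2bp3 was the only member called (background 5.58% lower). It had 40.8, 37.3, 43.5 and 32.4 RPKM in Ifnar -/- HPC, against 49.2, 55.1, 49.5 and 53.8 RPKM in wild type (−0.50 ± 0.11, edgeR adjusted p = 0.0116). All 4 knockout libraries lay below all 4 wild-type libraries. Igf2bp2 differed by 0.38 ± 0.13 (edgeR adjusted p = 0.0806) and Hmga2 by −0.30 ± 0.10 (adjusted p = 0.0719), and DESeq2 called both. Malsu1 differed by 1.76 (edgeR adjusted p = 0.0102). The libraries also differed in summed marker RNA, with HPC markers at 2510 to 3220 CPM in Ifnar -/- and 4050 to 4660 CPM in wild type. B cell markers were at 1.69 to 8.47 and 31.9 to 79 CPM, and erythroid markers at 19.4 to 97.9 and 10.1 to 11.5 CPM. Macrophage markers ran from 1.11 to 7.74 CPM in Ifnar -/- and from 10.8 to 24.3 CPM in wild type, T and NK cell markers from 35.7 to 59.2 and from 68.5 to 105 CPM. Y-linked genes were above 1 CPM in 4 of 4 Ifnar -/- and 2 of 4 wild-type libraries. The part of these features and of Malsu1 in the Igf2bp3 difference was not tested. P0 HPC of the age series had a mean of only 21.6 RPKM Igf2bp3.

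The effect of the Ifnar genotype differed between HSC and HPC for Hmga2 (difference of log2 fold changes 0.76 ± 0.17, edgeR adjusted p = 0.0235, background 0.698% higher). In HPC, Hmga2 had 25.4, 22.6, 25.8 and 29.7 RPKM in Ifnar -/-, against 29.6, 30.5, 30.9 and 30.9 RPKM in wild type. The call was lost without the first HSC knockout library (adjusted p = 0.0541), the second HPC knockout library (0.0526) or with replicate number as a block (0.0514). HSC and HPC libraries of this set carry different codes and depths.

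Among wild types of the genotype series at P0, all 6 members differed between HSC and HPC, 2 higher and 4 lower in HSC (background 29% and 25.2%). The higher ones were Igf2bp1 (1.60 ± 0.23, edgeR adjusted p = 5.3e-06) and Igf2bp2 (0.90 ± 0.11, adjusted p = 1.14e-06). The lower ones included Igf2bp3 (−2.73 ± 0.15, adjusted p = 1.97e-12) and Lin28b (−0.55 ± 0.17, adjusted p = 0.00835). Each of these had the sign it had in the age series at P0, from other libraries. Igf2bp3 means were 7.73 RPKM in HSC and 51.9 RPKM in HPC here, against 13.65 and 21.6 RPKM in the age series. In both series HSC and HPC carry different library codes, so code and cell type cannot be told apart. Hmga2 (−0.80 ± 0.12, edgeR adjusted p = 8.47e-06) and Arid3a (−0.87 ± 0.17, adjusted p = 0.000271) had the opposite sign to that in the age series, where they were not called (0.14 and 0.58).

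In P14 HPC, 12 of the 16 interferon-stimulated genes of that list were called lower in edgeR in Ifnar -/- than in Ifnar +/- with Flt3 +/+, and 15 of 16 with Flt3 ITD/+ (background 3.56% and 1.93% lower). The 4 Ifnar +/- Flt3 +/+ libraries stood apart from each other, with summed HSC markers of 1140, 3450, 1210 and 1750 CPM and HPC markers of 7290, 4840, 1690 and 2410 CPM. Ifnar1 itself differed by 0.67 and −0.08 (edgeR adjusted p = 0.0549 and 0.853). Of 6 comparisons among the 4 groups, Igf2bp3 in Ifnar -/- against Ifnar +/- on the Flt3 ITD/+ background was the single member call (1 of 6 lower, background 1.93%).

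Igf2bp3 had 4.22, 4.83, 5.84, 5.75 and 5.17 RPKM in Ifnar -/- Flt3 ITD/+ HPC, against 9.26, 6.74, 7.61 and 7.92 RPKM in Ifnar +/- Flt3 ITD/+ HPC (−0.65 ± 0.16, edgeR adjusted p = 0.0247). The groups did not overlap. In edgeR, 6 of 9 single leave-outs took the adjusted p to between 0.0502 and 0.0964. Summed HPC markers were 2230 to 3850 CPM in Ifnar -/- and 4370 to 6200 CPM in Ifnar +/- of this pair, erythroid markers 19 to 49 and 8.73 to 15.5 CPM, and their part was not tested. With Flt3 +/+, Igf2bp3 had 7.93, 5.15, 5.93 and 6.12 RPKM in Ifnar -/- and 7.93, 7.75, 4.56 and 7.81 RPKM in Ifnar +/- (−0.34 ± 0.17, edgeR adjusted p = 0.17), with overlap.

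The remaining P14 comparisons had 0 member calls in edgeR. For Flt3 ITD/+ against Flt3 +/+, 1 member passed an unadjusted p of 0.05 on Ifnar +/- and 0 on Ifnar -/- (background 5.12% and 0.956% in either direction), and DESeq2 called 1 and 0. The member concerned in Ifnar +/- was Hmga2, with 11.8, 12, 9.11 and 11.9 RPKM in Flt3 ITD/+ and 6.52, 8.64, 6.40 and 8.92 RPKM in Flt3 +/+ (0.47 ± 0.16, edgeR adjusted p = 0.0753). For Ifnar -/- against Ifnar +/- on Flt3 +/+, 2 members passed unadjusted, Lin28b and Igf2bp2, and DESeq2 called 0 (background 4.77%). For the double mutant against Ifnar +/- Flt3 +/+, 2 passed unadjusted and DESeq2 called 1, Igf2bp3 (background 1.87%). Without the second Ifnar +/- Flt3 +/+ library, edgeR called Hmga2 for Flt3 ITD/+ on Ifnar +/- (adjusted p = 0.0266), Lin28b and Igf2bp2 for Ifnar -/- on Flt3 +/+ (0.0298 and 0.0176) and Igf2bp3 for the double mutant (0.0249). The interaction had 0 unadjusted and 0 in DESeq2 (background 0.0115%).

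The make-up of the Igf2bp family was set against genotype as well, in 14 exact two-sided permutation tests added after the values were seen. Igf2bp2 gave 26.6 ± 2.89% of the family in P0 Ifnar -/- HPC and 16.8 ± 2.09% in wild type (SD, n = 4 each), without overlap. At P14 it gave 34.9 ± 4.59% in Ifnar -/- Flt3 +/+ against 22.2 ± 5.86% in Ifnar +/- Flt3 +/+, and 32.8 ± 5.67% in Ifnar -/- Flt3 ITD/+ against 18.2 ± 4.35% in Ifnar +/- Flt3 ITD/+, each without overlap. On Flt3 +/+ the gap was narrow, from 28.3% in the highest Ifnar +/- to 28.5% in the lowest Ifnar -/- library. Summed B cell markers of that pair ran from 1.04 to 3.01 CPM in Ifnar -/- and from 4.73 to 16.1 CPM in Ifnar +/-. T and NK cell markers ran from 92.4 to 141 and from 154 to 552 CPM, and the part of these was not tested. The exact permutation p-values were 0.0286, 0.0286 and 0.0159, and all became 0.0555 after adjustment, so none passed. For 4 against 4 libraries 0.0286 is the smallest p the exact permutation test allows, and the 14 tests hold both the Igf2bp2 and the Igf2bp3 share of each comparison, which mirror each other. With single libraries left out, the Igf2bp2 difference on Flt3 +/+ ran from 10.32 to 14.8 percentage points. Igf2bp3 shares ran the opposite way in each pair, as shares of 1 sum must where Igf2bp1 is small.

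In P0 HSC the Igf2bp2 share was 59.8 ± 3.49% in Ifnar -/- and 60.7 ± 3.17% in wild type (exact permutation p = 0.73, n = 4 and 5). Between series the HPC share differed too. The same exon lengths were used for both series, and whether both tables were counted on the same annotation is not known. Age-series HPC gave 30.5% at P0 and 14.1% at P14, against 16.8% in wild type at P0 and 22.2% in Ifnar +/- Flt3 +/+ at P14 of the genotype series.

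**Figure D5:**
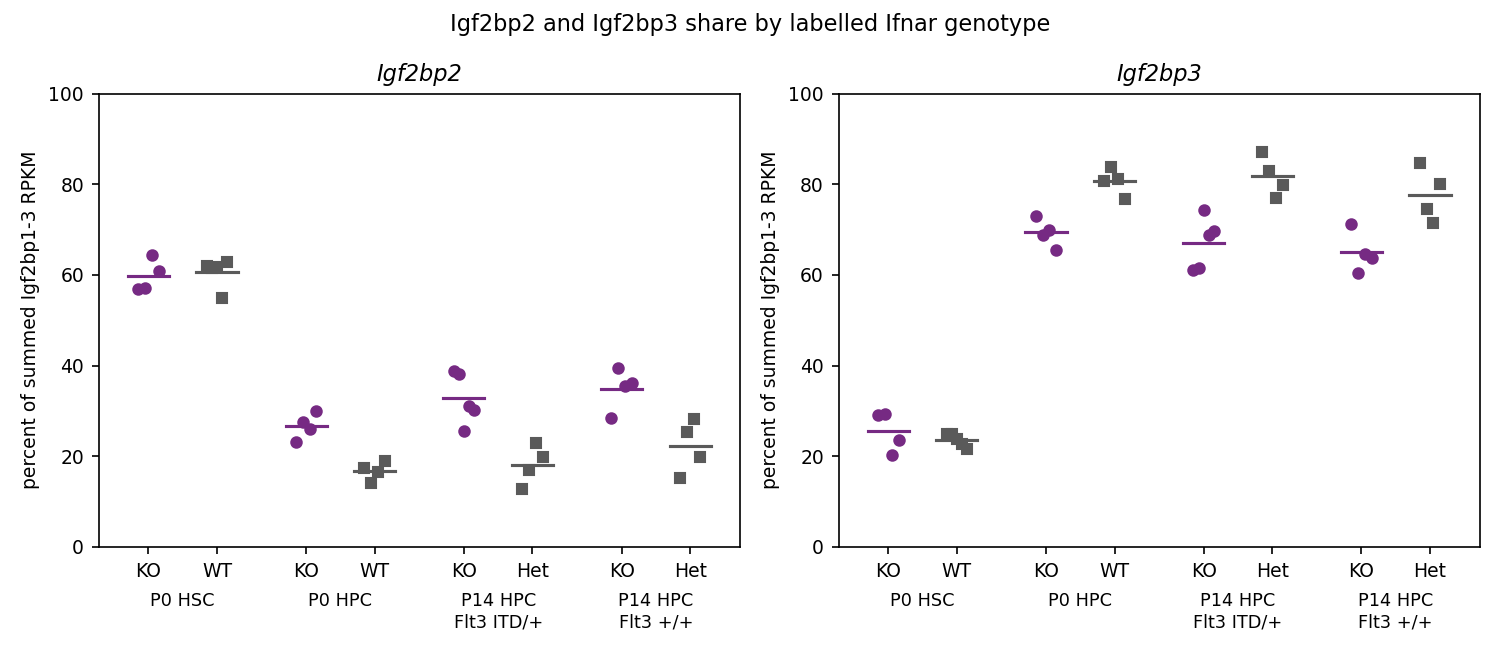
Shares of Igf2bp2 (left) and Igf2bp3 (right) in the summed Igf2bp RPKM, in percent, 1 point a library with bars at group means, for libraries labelled Ifnar -/- (KO), wild type (WT) and Ifnar +/- (Het). In HPC the Igf2bp2 share of Ifnar -/- libraries lies above that of their counterparts, and in P0 HSC the groups overlap.

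Of 9 fetal regulators tested in HPC, 3 were higher and 1 lower in Ifnar -/- at P0 (background 5.2% higher and 5.58% lower), 2 higher and 0 lower at P14 with Flt3 +/+ (1.21% and 3.56%), and 1 higher and 1 lower at P14 with Flt3 ITD/+ (2.14% and 1.93%). Mllt3 was higher in Ifnar -/- in all 3 HPC comparisons (0.79 ± 0.16 at P0, 0.81 ± 0.15 and 0.69 ± 0.14 at P14 with Flt3 +/+ and Flt3 ITD/+, edgeR adjusted p = 0.00595, 0.0146 and 0.00973), and Cebpa, a myeloid transcription factor, was lower at P0 (−1.24 ± 0.35, edgeR adjusted p = 0.0367) and at P14 with Flt3 ITD/+ (−1.31 ± 0.33, adjusted p = 0.0313). H19 was higher in P0 Ifnar -/- HPC (0.997 ± 0.23, edgeR adjusted p = 0.0135). Of the let-7 targets, 1 of 21 was called at P0, where 5.2% of all genes were higher, and it was Igf1r (0.71 ± 0.16, edgeR adjusted p = 0.012).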

How the data were processed

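The authors aligned reads with STAR (given as 3.0.4) and counted genes with Subread featureCounts 1.4.5, per the submitters' processing notes; genome build, annotation and strand setting are not given in the sources used here. RNA came from a Qiagen micro column and Clontech low-input kit, per the labels' protocols. The HSC age columns of the first table were deposited by the authors as RPKM. The HPC columns and the second table were deposited as raw counts. For levels and shares these counts were turned into RPKM with the gene lengths that fit the HSC columns. In the HSC columns, 100% of nonzero values are whole reads (tolerance 1e-05) once multiplied by a gene length, from GENCODE M21 or from the values. The GENCODE M21 length met this for 16638 of 25622 detected genes. For 8984 genes, among them Lin28b, Igf2bp2 and Igf2bp3, a length was sought that made the values whole. Whole reads are therefore no check of the recovery for those genes. This recovery gave the HSC read numbers, library depths, marker and Y-linked CPM and the check of replicate noise. In the tests of genes, the recovered reads served the edgeR alternative only. Left unused was 1 sample column that no label names. The 2 rows that are not mouse genes were left out.

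The 6 members and all gene lists were chosen with earlier results of these data known, and the interferon list and family shares by genotype after values were seen. HSC ages and HSC against HPC were tested with limma 3.58.1 (trend, robust) on log2 of TMM-scaled RPKM plus 0.5, among genes above 1 RPKM in at least 3 libraries, and counts with edgeR 4.0.16 (TMM, filterByExpr, quasi-likelihood test), in R 4.3.3. Adjusted p-values are Benjamini-Hochberg over all genes tested, called under 0.05. Likeness is Pearson's r on log2 values, with the 3 most like genes per member computed. DESeq2 1.42.0, other pseudocounts and filters, no TMM, groups alone, a replicate block and leave-one-out were the alternatives. Comparisons that share a group share its libraries. The tests were checked on simulated data. Replicates differed by more than sampling noise in every group.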

Additional observations from a re-analysis of the deposited data

Results flagged for a closer look

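By Dixon's test, 9 values stood apart among the groups of 4 or 5 libraries (102 groups of a gene and a condition), and chance gives about 1 in 20 groups. Igf2bp2 had 5.65 RPKM in the third P7 HPC library. Igf2bp3 had 16.49 RPKM in the second E16 HSC library, 20.8 RPKM in the third P0 HSC library, 0.603 RPKM in the fourth adult HSC library and 4.56 RPKM in the third P14 Ifnar +/- Flt3 +/+ library. Hmga2 had 11.2 RPKM in the fifth P14 HPC library, 9.11 RPKM in the third P14 Ifnar +/- Flt3 ITD/+ library and 14.4 RPKM in the first P14 Ifnar -/- Flt3 +/+ library. Arid3a had 1.249 RPKM in the fourth adult HSC library, the same library in which Igf2bp3 was high.

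The change from E16 to adult differed between HSC and HPC for Igf2bp2 (1.14, limma adjusted p = 0.00106). Sex and cell type cannot be told apart in the adult libraries of that comparison. The effect of the Ifnar -/- label at P0 differed between HSC and HPC for Hmga2 (0.76, edgeR adjusted p = 0.0235).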

How the results depend on the processing

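Of 76 called member results, 441 of 460 checks under other settings kept direction and call, 19 lost the call and 0 reversed; with single libraries left out, 597 of 631 kept it, 34 lost it and 0 reversed. The number of members called (value of the chosen settings in brackets) moved by more than 1.5 times as follows. In limma, a pseudocount of 0.1 gave 1 at HSC E18 against E16 (2) and 0 at HSC P0 against E18 (1), edgeR on recovered reads gave 1 at E18 against E16 (2), and a pseudocount of 1 or no TMM scaling gave 2 for the adult minus E16 difference between HSC and HPC (1). Fitting only the groups compared gave 1 at HSC P14 against P7 (2), 5 at HPC P7 against P0 (3) and 3 for HSC against HPC at P14 (5). DESeq2 gave 2 at HPC P0 against E16 (1), 3 for Ifnar -/- in P0 HPC (1), 2 for the P0 Ifnar effect in HSC against HPC (1), and 1 (0) for Flt3 ITD/+ on Ifnar +/- and for the double mutant. Without a filter the P0 Ifnar effect difference also gave 2. A further 22 counts under other settings, most of them of HSC against HPC, moved by 1.5 times or less.

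With single libraries left out the counts ran over 1 to 2 (HSC E18 against E16), 0 to 1 (HSC P0 against E18), 1 to 2 (adult minus E16 difference), 2 to 4 (HPC P7 against P0), 3 to 4 (HSC P7 against P0), 2 to 3, 3 to 5, 4 to 5, 3 to 5 and 1 to 3 (HSC against HPC at E16, P0, P7, P14 and in adults), 0 to 2 (P0 Ifnar effect difference), 1 to 3 (P0 HPC Ifnar), and, at P14, 0 to 1 (Flt3 ITD/+ on Ifnar +/-), 0 to 2 (Ifnar -/- on Flt3 +/+), 0 to 1 (double mutant) and 0 to 1 (Ifnar -/- on Flt3 ITD/+). The cause of these moves was not tested.

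In 0 of 22 comparisons checked did every pair of same-numbered libraries have an r above 0.1 (range −0.18 to 0.23). HSC against HPC in the age series was not among them, so whether numbers pair libraries there is not known. With a replicate block the counts were 2 (3) and 4 (5) for HSC against HPC at E16 and P14. They were 0 (1) for the P0 Ifnar effect difference and 0 (1) for Ifnar -/- on Flt3 ITD/+. In that last comparison Igf2bp3 had an edgeR adjusted p of 0.0542, and the uncalled log2 difference of Lin28b turned to 0.035.

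Only uncalled values changed sign. They were the adult minus E16 difference of Igf2bp3 (−0.25 with a pseudocount of 0.1, −0.14 in edgeR on recovered reads) and Igf2bp1 (1.02 in edgeR), Hmga2 at HSC P0 against E18 (−0.005 without TMM), and Arid3a for Ifnar -/- on Flt3 +/+ (−0.023 with DESeq2 and with its size factors in edgeR, −0.013 unfiltered).
With single libraries left out, uncalled members crossed 0 over these ranges of log2 values. By age and cell type these were Arid3a −0.154 to 0.24 (HSC E18 against E16), Lin28b −0.477 to 0.016 and Hmga2 −0.042 to 0.088 and Arid3a −0.033 to 0.419 (HSC P0 against E18), Igf2bp2 −0.368 to 0.025 (HPC P0 against E16), Igf2bp1 −1.067 to 0.269 and Arid3a −0.496 to 0.011 (HPC P14 against P7), Arid3a −0.031 to 0.133 (HSC against HPC at E16), Hmga2 −0.16 to 0.019 (HSC against HPC in adults). By genotype they were Lin28b −0.131 to 0.065 (P0 Ifnar effect difference), Igf2bp1 −0.042 to 0.185 (P0 HSC Ifnar -/-), Lin28b −0.124 to 0.038 (P0 HPC Ifnar -/-), Igf2bp1 −0.571 to 0.386 and Igf2bp3 −0.028 to 0.189 (Flt3 ITD/+ on Ifnar +/-), Igf2bp1 −0.809 to 0.235 and Hmga2 −0.039 to 0.216 and Arid3a −0.117 to 0.108 (Ifnar -/- on Flt3 +/+), Arid3a −0.146 to 0.078 (double mutant), Igf2bp1 −0.638 to 0.418 and Igf2bp2 −0.268 to 0.06 (P14 interaction), Lin28b −0.09 to 0.025 and Igf2bp1 −0.689 to 0.261 (Ifnar -/- on Flt3 ITD/+), Igf2bp1 −0.527 to 0.501 and Arid3a −0.101 to 0.036 (Flt3 ITD/+ on Ifnar -/-).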
